A study of Mus musculus with 26 samples.

Results

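The cells described here were R1 mouse embryonic stem cells (ESCs) that lack the Tdpoz super-enhancer. After 24 h of Dux overexpression, 60 of 71 tested 2-cell (2C) genes were higher in them than in untreated wild-type cells. Against Dux-overexpressing cells with the enhancer, 23 were lower. Of all genes tested, 9.02% were higher and 3.84% lower in these 2 comparisons. The 2C lists were drawn up with results of these data known. Zscan4c read 5.73 and 6.13 CPM (counts scaled to the size of the library) in untreated wild-type cells, 388 and 343 CPM with Dux and without the enhancer, and 811 and 810 CPM with both. The 2 libraries compared here are SE KO Dux OE replicates 1 and 2, set against the 2 libraries of untreated wild-type ESCs, so 4 of the 26 libraries of the series carry the main comparison. They were chosen by their labels alone. The 2 Dux OE libraries from wild-type cells served to say what the full response was.

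All cells were R1 ESCs kept in medium with leukemia inhibitory factor (LIF) on gelatin. ESC received no treatment. Dux OE and SE KO Dux OE received doxycycline at 4 µg/mL for 24 h, and the genotype label of the latter is SE KO. Further groups used here are RA and SE KO RA (retinoic acid, 0.53 µM for 48 h), PlaB and SE KO PlaB (pladienolide B, a splicing inhibitor, 4 nM for 4 days), Zscan4 OE and Dux R70A OE (doxycycline, 24 h) and DMSO. Each group had 2 replicates, and nothing in the labels says that they came from separate cultures, so p-values measure only the spread between these samples. No untreated SE KO library was among the groups, so in SE KO Dux OE against ESC the effect of the deletion and that of the induction cannot be told apart. SE KO Dux OE against Dux OE differs in genotype alone according to the labels, which do not say how many clones were used. In bulk RNA, fewer responding cells and less RNA per cell cannot be told apart either. SE KO RA replicate 1 carries the genotype label WT but a title that says SE KO, and it was grouped by its title.

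Dux is a double homeodomain transcription factor that is expressed at the 2-cell stage, when the mouse embryo starts to transcribe its own genome. In ESCs it switches on MERVL retrotransposons and neighbouring 2C genes, among them the Zscan4, Usp17l, Tcstv and Eif1a-like families. A super-enhancer is a stretch of clustered, strongly active enhancers. The Tdpoz genes, which encode proteins with TRAF and POZ domains related to the ubiquitin ligase adaptor Spop, form a multi-copy cluster on chromosome 3 and are themselves 2C genes.

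The SE KO Dux OE libraries were deeper than the others, with 39402840 and 32990350 counts against 14401452 to 22716564, and 3 counts corresponded to between 0.0796 and 0.226 CPM. They also stood apart in 47 genes, as pairs of other groups did by the same rule. In 7 genes both of their values lay more than 3-fold below every other library, and in 40 genes both lay over 2-fold above every other library. In the other 12 groups 0 to 1238 genes lay as far below and 0 to 1708 as far above, with 0 and 197 in Dux OE, 20 and 208 in SE KO RA, and the highest counts in PlaB. The spliceosome protein gene Snrpf read 0.106 and 0.164 CPM against 30.2 to 60.4 CPM in the other 24 libraries, and the matrix protein gene Postn read 11.6 and 14.1 CPM against at most 0.127 CPM. Genes of these 2 kinds were nearly all in the sets found only in SE KO Dux OE, and 1 of them, Col12a1, was a Dux-induced gene. They are described with those sets.

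Of 20953 genes tested, 1891 were higher in SE KO Dux OE than in ESC (9.02% of the genes tested) and 804 were lower (3.84%), at an adjusted p-value under 0.05 in edgeR's quasi-likelihood test and a log2 fold change of at least 1. In Dux OE against the same ESC libraries, 1547 were higher (7.38%), called Dux-induced from here on, and 445 were lower (2.12%). Of the 1547 Dux-induced genes, 1145 (74%) were also higher in SE KO Dux OE, 401 (25.9%) were not called and 1, Gm12091, was lower. These 2 comparisons share the ESC libraries, and a gene in which ESC happened to read low is favoured in both. Taken from Dux OE against DMSO instead, the Dux-induced set held 2408 genes, of which 995 (41.3%) were higher in SE KO Dux OE than in ESC and 1770 were higher than in DMSO. Directly compared with Dux OE, SE KO Dux OE was higher in 515 genes (2.46%) and lower in 804 (3.84%). Of the Dux-induced genes, 455 (29.4%) were lower than in Dux OE. Without Dux OE replicate 2, 451 genes in all were lower and 342 higher than in Dux OE.

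**Figure D1:**
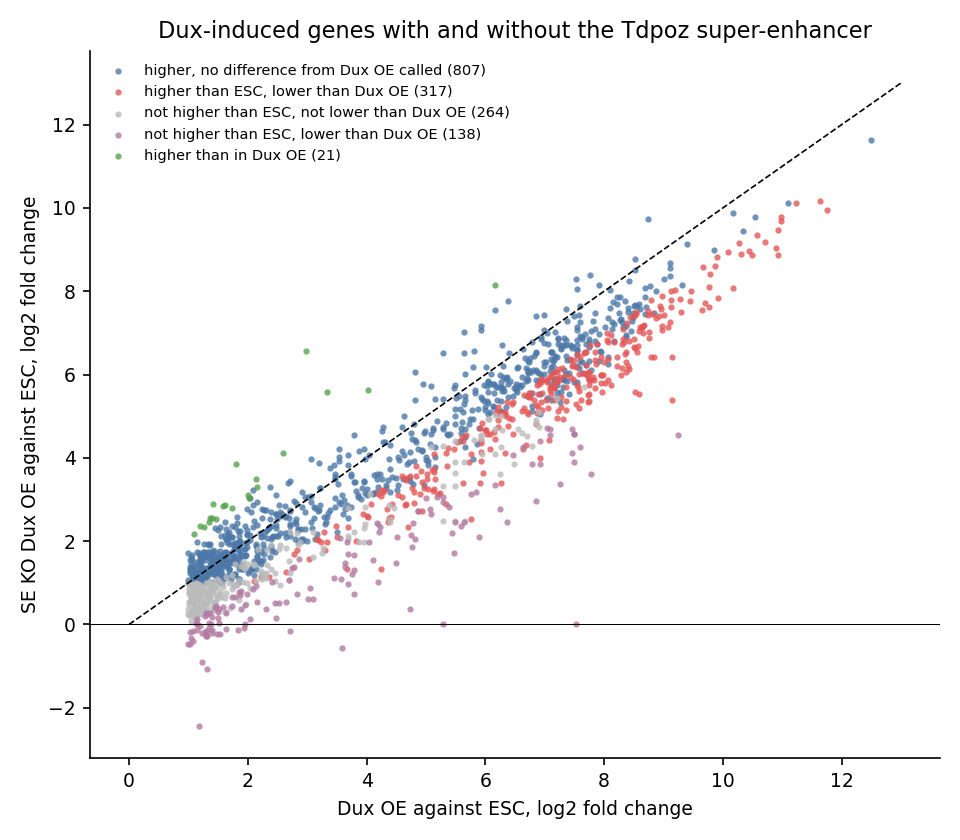
Each point is 1 of the 1547 Dux-induced genes, with the log2 fold change of Dux OE against ESC on the x axis and that of SE KO Dux OE against ESC on the y axis, coloured by the calls of the 3 comparisons. The dashed line marks equal change, and the genes with the largest rises lie below it. In the 807 genes in blue no difference from Dux OE was called, and these include genes past the adjusted p but under the fold limit.

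The calls placed the Dux-induced genes in 5 classes. In 807 (52.2%) the gene was higher than in ESC and no difference from Dux OE was called. In 317 (20.5%) it was higher than in ESC but lower than in Dux OE. A further 138 (8.92%) were lower than in Dux OE and not higher than in ESC, and 264 (17.1%) were called in neither test. In 21 (1.36%) the level was higher than in Dux OE. The 317 reduced genes had larger fitted rises in Dux OE, with a median log2 value of 7.2, against 3.47 in the 807 genes. The limits favour this, since a reduced gene must lie 1 or more above ESC and 1 or more below Dux OE. In 211 of the 317 and 364 of the 807 genes, ESC was at 3 counts or fewer in each library. There the fitted rise depends on the prior count.

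The share of the rise that was kept, the CPM gained over ESC in SE KO Dux OE as a percentage of that gained in Dux OE, had a median of 50.9% over the Dux-induced genes, with quartiles of 31.9% and 79.9%. The medians of the replicates were 52.6% and 47.3%. The share was 100% or more in 263 genes and under 50% in 757. Genes that rose by a log2 fold change of 1 to 2 in Dux OE kept a median of 75%, those of 4 to 6 kept 43.9%, and those of 8 and over kept 39.1%. In the same steps, the genes also higher than in ESC went from 54.9% to 99.4% and the genes lower than in Dux OE from 10.4% to 62.6%. The genes with the strongest response were thus called most often in both tests, higher than in ESC and lower than in Dux OE. The fold limits favour this, since a gene that rose little can fall 1 below Dux OE only by losing most of its rise. Weak rises are close to the spread between replicates, and the choice of genes by their rise in Dux OE lowers the share in the other group, so the values of the first step are the least certain. No difference called is not a sign of a full rise: the 807 genes kept a median of 76.2%, with quartiles of 55.8% and 106%, and the share lay between 80% and 125% in 229 of them.

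**Figure D2:**
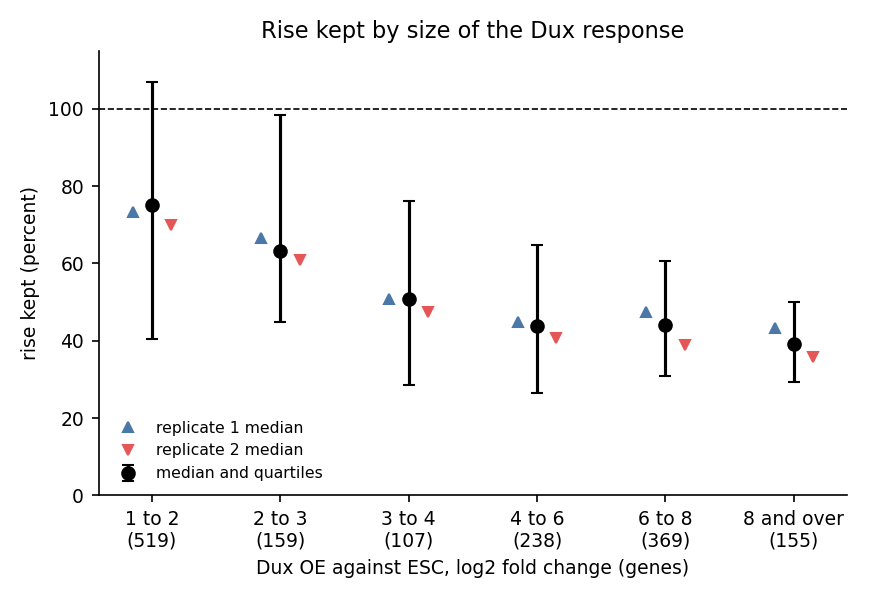
The y axis gives the share of the Dux OE rise kept in SE KO Dux OE, in percent of CPM, and the x axis the log2 fold change of Dux OE against ESC, with the number of genes in brackets. Points are medians, bars run between the quartiles, triangles are the medians of each SE KO Dux OE replicate, and the dashed line marks a full rise. The median falls from 75% in the first step to 39.1% in the last.

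Duxf3, the annotated Dux gene of the chromosome 10 repeat, read 0.187 and 0 CPM in ESC, 4.01 and 3.24 CPM in Dux OE and 1.46 and 1.28 CPM in SE KO Dux OE. It was lower in SE KO Dux OE than in Dux OE (log2 fold change -1.4, adjusted p = 0.00679), and without Dux OE replicate 1 that difference was not called (-1.22, adjusted p = 0.0795). The summed level of the list of Dux copies, to which Duxf3 belongs, was 5.9 and 3.31 CPM in Dux OE. In Dux R70A OE, also given doxycycline, it was 0.0537 and 0 CPM, and in PlaB, without doxycycline, 9.33 and 8.24 CPM. The sources used here do not say whether reads of the transgene are counted on these genes, and this was not tested. The amount of Dux that the doxycycline gave in each line is therefore not known from these counts, and its part in the differences below was not tested.

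The Tdpoz genes were also higher than in ESC. Tdpoz3 read 0.498 and 0.4 CPM in ESC, 35.3 and 38.5 CPM in Dux OE and 8.97 and 6.84 CPM in SE KO Dux OE. Its groups did not overlap, its log2 fold change was 4.12 ± 0.327 (SE) against ESC and -2.22 ± 0.198 (SE) against Dux OE (adjusted p = 7.58e-09), and it kept 20.5% of its rise. Tdpoz4 read 11.7 and 8.93 CPM after 30.8 and 34.4 CPM in Dux OE and kept 31.2%. Tdpoz8 kept more, 56.2%, with 13.4 and 10.5 CPM after 20.3 and 21.9 CPM in Dux OE, and its log2 difference of -0.82 (adjusted p = 0.0204) did not reach the fold limit. Of 8 tested genes in this list, 6 rose in Dux OE, the same number rose in SE KO Dux OE, and Tdpoz3 and Tdpoz4 were lower than in Dux OE. Tdpoz1 was at 0 counts in both ESC libraries and at 1.19 and 0.753 CPM in SE KO Dux OE, at least 5.03-fold higher. These are near-identical copies, and how reads that map to several of them were counted is not stated, so values of single copies are uncertain.

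The 250 bases before the annotated start of Tdpoz4 and Tdpoz8 are shown because these copies kept different shares of their rise. They are RefSeq sequences of build GRCm38.p6, 5′ to 3′ on the gene's strand, from chr3:93796148-93796397 (plus strand) and, for the second of 2 listed Tdpoz8 starts, chr3:93073271-93073520 (plus strand).
Tdpoz4: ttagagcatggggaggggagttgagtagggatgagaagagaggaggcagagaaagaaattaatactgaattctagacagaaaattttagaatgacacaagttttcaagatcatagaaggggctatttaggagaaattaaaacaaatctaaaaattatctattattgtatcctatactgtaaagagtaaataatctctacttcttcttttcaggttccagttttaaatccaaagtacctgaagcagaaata
Tdpoz8: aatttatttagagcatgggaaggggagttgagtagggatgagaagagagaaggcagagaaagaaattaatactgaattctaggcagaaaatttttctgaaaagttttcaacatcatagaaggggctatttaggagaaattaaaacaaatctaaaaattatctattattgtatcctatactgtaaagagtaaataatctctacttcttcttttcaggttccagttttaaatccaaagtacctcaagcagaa
Of 243 aligned bases, 234 (96.3%) were identical, and neither sequence holds TGATT or its reverse complement AATCA, the short motifs searched for as part of the Dux binding motif. The Tdpoz8 bases lie inside the gene as counted (chr3:93068823-93075505), and those before its other listed start are not shown. The part of either sequence in the shares kept was not tested.

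All 6 Zscan4 genes, which encode zinc finger proteins of the 2-cell stage, rose in both inductions. Zscan4d, the highest, read 12 and 10.1 CPM in ESC, 1660 and 1710 CPM in Dux OE and 742 and 613 CPM in SE KO Dux OE. The groups did not overlap, and the log2 difference of Zscan4d from Dux OE was -1.31 (adjusted p = 4.06e-09). Zscan4c kept 44.7% of its rise and Zscan4b 35.9%, the lowest share of the family. Zscan4b, Zscan4c, Zscan4d and Zscan4e were lower than in Dux OE, while Zscan4a and Zscan4f kept 56.4% and 56.8% and fell short of the fold limit with log2 differences of -0.82 and -0.8. In SE KO RA against RA and in SE KO PlaB against PlaB all 6 were lower. The bases upstream of Zscan4c (chr7:11005495-11005744, plus strand) and Zscan4d (chr7:11166149-11166398, minus strand) are set beside those of the Tdpoz genes, with the short motifs TGATT and AATCA in capitals.
Zscan4c: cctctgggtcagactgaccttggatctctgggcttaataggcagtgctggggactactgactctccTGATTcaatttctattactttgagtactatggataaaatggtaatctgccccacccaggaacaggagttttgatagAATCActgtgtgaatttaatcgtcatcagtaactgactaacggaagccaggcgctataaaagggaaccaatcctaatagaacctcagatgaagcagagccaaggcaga
Zscan4d: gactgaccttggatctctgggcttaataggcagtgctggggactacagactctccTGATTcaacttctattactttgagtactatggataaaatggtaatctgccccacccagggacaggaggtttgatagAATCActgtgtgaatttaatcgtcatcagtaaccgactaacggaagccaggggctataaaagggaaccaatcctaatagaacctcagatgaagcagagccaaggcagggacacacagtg
Both hold 2 of these motifs, and 232 of 239 aligned bases (97.1%) were identical. The whole motif, TGATT, any 1 base and AATCA, searched on both strands, was in none of the promoters of 300 bases listed for 778 Dux-induced genes, and in 11 of 27025 promoters in the table (0.0407%). Either short motif was in 41.9% of the Dux-induced promoters, in 45% of those of the reduced class, in 42% of those with no difference called, in 34.4% of those of all genes tested, and in 40.8% of all promoters of the table, untested genes included. These windows hold no information on the retrotransposon promoters and enhancers outside them.

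The Usp17l genes, a family of deubiquitinases, kept more of their rise than the Zscan4 genes in median, 62% against 42.4%, a difference that was not tested. Usp17la read 1.81 and 2.53 CPM in ESC, 297 and 306 CPM in Dux OE and 201 and 206 CPM in SE KO Dux OE. Usp17lc, with 111 and 104 CPM after 254 and 273 CPM, kept 40.4% and was the 1 gene of the 5 called lower than Dux OE. Among the Tcstv genes of chromosome 13, expressed at the 2-cell stage, Tcstv1 read 8.63 and 5.33 CPM after 26.8 and 25.3 CPM in Dux OE and kept 26.6%. Tcstv3, with 71.8 and 53.3 CPM after 123 and 143 CPM, kept 47%. The related AF067063 was at 0 counts in ESC and at 20.6 and 20.3 CPM in SE KO Dux OE, at least 106-fold higher, after 36.6 and 38.1 CPM in Dux OE.

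Zfp352, Sp110, Gm17895 and Gm4340 made up the list of zinc finger and interferon-type 2C genes, and all 4 rose in SE KO Dux OE and stayed below Dux OE. Zfp352, a 2C zinc finger gene, read 0.187 and 0 CPM in ESC, 83.4 and 84.1 CPM in Dux OE and 42.6 and 35.9 CPM in SE KO Dux OE. Its difference from Dux OE was -1.09 ± 0.155 (SE) on the log2 scale, adjusted p = 1.9e-05. Sp110, a nuclear body protein gene induced by interferon, read 29.3 and 20.4 CPM after 60.9 and 66.6 CPM in Dux OE and kept 38.6%. Gm17895 was at 0 counts in ESC and at 7.59 and 5.1 CPM in SE KO Dux OE, at least 32.8-fold higher, and kept 28.5%. The Dux OE replicates of Gm4340 were 400 and 205 CPM, so its share of 44.1% is less certain.

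The Eif1a-like genes, near-identical relatives of a translation initiation factor gene, kept the largest share of any 2C list, a median of 77.1% over 11 genes. The 9 tested members of chromosome 12 kept between 61.6% (Gm5039) and 95.3% (Gm21319), and no difference from Dux OE was called. Gm5662 read 11.8 and 10.5 CPM in ESC, 756 and 830 CPM in Dux OE and 667 and 561 CPM in SE KO Dux OE. Gm21319 read 78.3 and 56.1 CPM after 66.5 and 74.5 CPM in Dux OE, and these groups overlapped. The 2 members of chromosome 13 were lower: Gm21761 read 288 and 275 CPM after 594 and 625 CPM and kept 46%, and Gm20767 kept 49.5%. This split by chromosome was seen in the values and was not tested.

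Among the other 2C genes, Obox3, a homeobox gene of the early embryo, was at 0 counts in ESC, at 2.19 and 2.43 CPM in Dux OE and at 0.717 and 1.57 CPM in SE KO Dux OE. Its difference from Dux OE, -1.02 ± 0.583 (SE) on the log2 scale, was not called (adjusted p = 0.219). Ubtfl1, which encodes a relative of the RNA polymerase I factor Ubtf, kept 98.8% with 25.6 and 22.4 CPM after 23.8 and 24.8 CPM in Dux OE, and these groups overlapped. Tmem92 kept 77.9%, with 46.4 and 46.9 CPM after 59.9 and 59.6 CPM. Pramef25, of the Prame-like family, read 57.6 and 50.5 CPM after 122 and 129 CPM and kept 42.8%. The homeobox gene Lmx1a read 18 and 19.2 CPM after 35.1 and 48.5 CPM and kept 44%. Of the 7 genes that the study named beside Dux as shared by its totipotent models, all rose in SE KO Dux OE. Dnah7c, an axonemal dynein gene, kept 32.9%, Gm27167 33.2% and Cpb2, a carboxypeptidase gene, 42.1%, and these 3 were lower than in Dux OE. Trim75 kept 51.2%, and its relatives Trim43a, Trim43b and Trim43c were not called. Gpr63 and Gm11545 kept 177% and 112%, with no difference from Dux OE called.

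**Figure D3:**
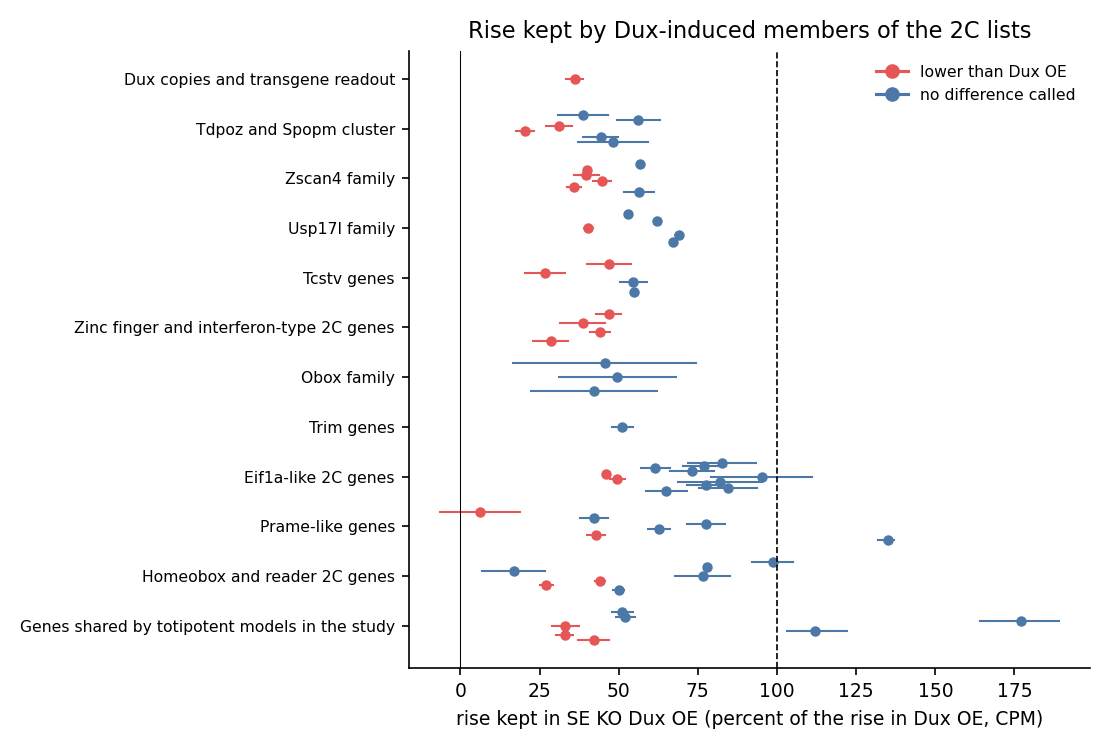
Each dot is 1 Dux-induced gene of the 2C lists, placed by the share of its Dux OE rise kept in SE KO Dux OE, in percent of CPM. Lines join the shares of the 2 SE KO Dux OE replicates, red marks genes lower than in Dux OE, and the dashed line marks a full rise. The median share is 77.1% in the Eif1a-like and 42.4% in the Zscan4 genes.

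Over the 12 lists of 2C genes together, 96 genes were listed and 71 tested. In each induction 60 of them were higher than in ESC, 23 were lower in SE KO Dux OE than in Dux OE, and none was higher by edgeR. Of all genes tested, 9.02% were higher than ESC in SE KO Dux OE and 7.38% in Dux OE. Against Dux OE, 3.84% of all genes were lower and 2.46% higher. DESeq2 called 56 higher than ESC and 22 lower than Dux OE. The median log2 fold change against ESC was 5.74 in SE KO Dux OE and 6.33 in Dux OE, or 5.17 and 6.13 with genes without ESC counts set at their bound, where the median over all genes tested was 0.01 and 0. Against Dux OE it was -0.82, where that of all genes was -0.02. Many of the members were taken from the study, which chose them on samples of this kind, and all lists were drawn up with results of these data known, so the counts are a description.

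The genes with the largest fitted rises in SE KO Dux OE, at an average log2 CPM of at least 1, were mostly predicted genes. Their order rests on fits over ESC counts of 0 or near it, and bounds order them otherwise. Gm31641, Gm9621, Gm45659 and Gm50210 were at 0 counts in ESC and between 4.55 and 8.52 CPM in SE KO Dux OE. Their bounds were 37.9-fold, 36.9-fold, 36.6-fold and 29.3-fold. BC147527 rose from 0.187 and 0.0667 CPM to 73.3 and 62.8 CPM, at least 352-fold with ESC set at 3 counts. Dcc, the netrin receptor gene, read 0.187 and 0.0667 CPM in ESC, 38.4 and 43.7 CPM in Dux OE and 24.6 and 23.2 CPM in SE KO Dux OE. Its log2 difference from Dux OE was -0.78 (adjusted p = 0.00119).

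Among genes whose groups did not overlap and whose average log2 CPM was 1 or more, Gm5586 had the largest shortfall, which rested on 1 library, followed by Gm21738, Snora17 and Gm10800. Gm21738 read 0.311 and 0.133 CPM in ESC, 26.2 and 29.8 CPM in Dux OE and 4.06 and 3.34 CPM in SE KO Dux OE, a log2 difference from Dux OE of -2.92 ± 0.218 (SE, adjusted p = 6.23e-10). The small nucleolar RNA gene Snora17 read 3.11 and 3.83 CPM after 21.7 and 29.9 CPM. Gm10800 fell from 295 and 310 CPM in Dux OE to 67.4 and 47.5 CPM. Gm5117 read 57.2 and 54.6 CPM after 230 and 242 CPM, and Gm5939, on the X chromosome, 27.2 and 22.6 CPM after 106 and 119 CPM. In Gm5586, with 0.948 and 21.6 CPM in Dux OE, the difference rested on 1 Dux OE library, and without it the log2 value was -0.56 (adjusted p = 0.57). In Gm2451, with 9.84 and 2.23 CPM in Dux OE, it was -0.95 without the first (adjusted p = 0.234).

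The 21 Dux-induced genes that were higher than in Dux OE were led by Col12a1, a collagen gene that read 0.656 and 0.946 CPM in Dux OE and 9.56 and 10 CPM in SE KO Dux OE. Usp26, an X-linked deubiquitinase gene, read 1.49 and 1.73 CPM in ESC, 9.55 and 10.1 CPM in Dux OE and 30.4 and 25.8 CPM in SE KO Dux OE, 1.52 higher on the log2 scale (adjusted p = 1.36e-06). Wls, required for the secretion of Wnt proteins, rose from 2.92 and 2.77 to 7.7 and 6.87 CPM. Selenop, a selenium transport protein gene, rose from 5.98 and 7.43 to 16.4 and 15.5 CPM. Usp26, Wls and Selenop were chosen after their values were seen. Col12a1, Col6a1 and Igha of this class belong to the marker lists discussed with the genes found only in SE KO Dux OE.

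Gene type and the comparisons of SE KO with wild type under other inducers were not used by the calls. They are given here for each class without a test of the difference. Of the 317 reduced genes, 35.6% were protein coding and 61.2% carried predicted Gm names, against 63.4% and 34.2% of the 807 genes with no difference called and 74.2% and 19.3% of all genes tested. In comparisons that share no library with these, 64.4% of the 317 genes were lower in SE KO RA than in RA. So were 36.2% of the 807 genes and 11% of all genes tested, while 6.57% of all genes were higher there. Without SE KO RA replicate 1 these shares were 57.1%, 28.3% and 8.28%. In SE KO PlaB against PlaB, 62.8% of the 317 and 44.9% of the 807 genes were lower, against 26.1% of all genes, with 25.9% higher. The 138 genes that were lower than in Dux OE and not called against ESC were lower in 10.9% in SE KO RA and in 53.6% in SE KO PlaB. The 3 comparisons use libraries labelled SE KO, and whether they are 1 line is not stated.

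Many of the reduced genes were also higher under other inducers, though few in Dux R70A OE. Of the 317, 91.5% were higher in PlaB than in DMSO (32.3% of all genes tested), 73.2% in RA (20.6%), 62.5% in Zscan4 OE (7.63%) and 1.58% in Dux R70A OE (6.14%), the form of Dux with arginine 70 replaced by alanine. For the 807 genes the shares were 64.3%, 60.6%, 33.6% and 12.8%, and for the 138 genes 57.2%, 24.6%, 12.3% and 18.1%. The 21 genes higher than in Dux OE had shares of 76.2%, 90.5%, 61.9% and 47.6%. The 317 genes also had larger rises in Dux OE than the 807, and the part of this in the shares was not tested.

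**Figure D4:**
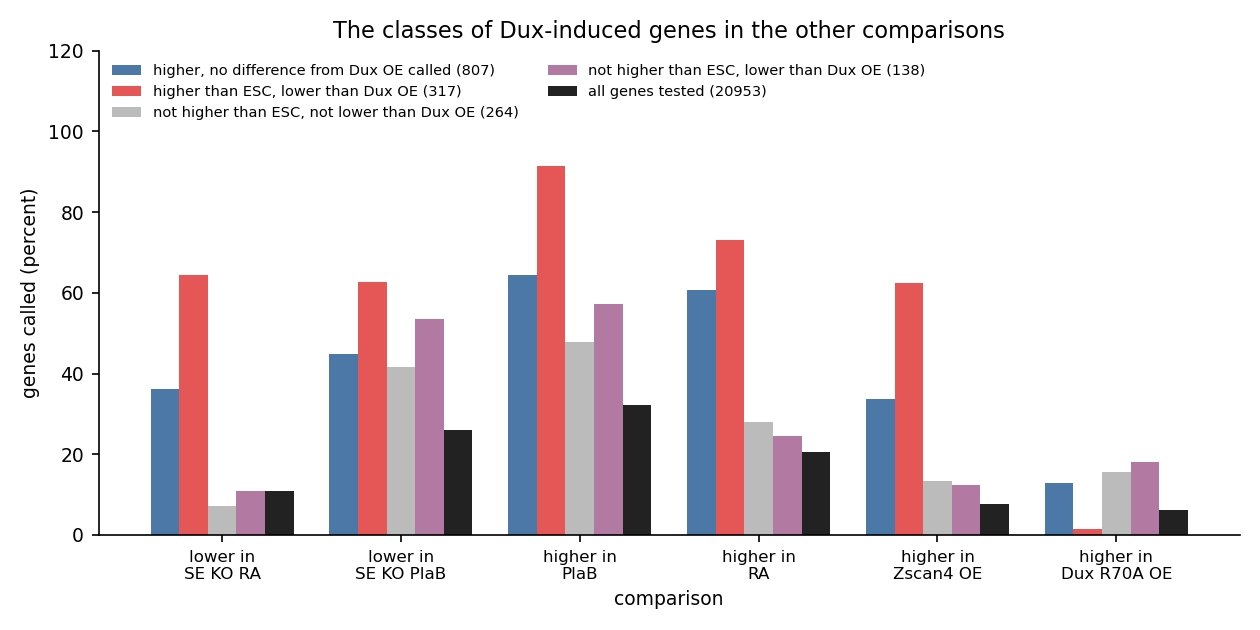
Bars give the percentage of genes called, starting from 0, in 6 comparisons that share no library with ESC, Dux OE or SE KO Dux OE, for 4 classes of Dux-induced genes and for all genes tested, with the number of genes in brackets. The deletion groups are set against the wild-type group with the same inducer and the inducers against DMSO. The red bars, for the reduced class, reach 64.4% in SE KO RA and 91.5% in PlaB.

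A smaller share of the genes that Dux lowered was called again than of those it raised, a difference that was not tested. Of 445, 209 (47%) were also lower than ESC in SE KO Dux OE, 235 (52.8%) were not called and 1, Itpripl2, was higher, and 76 (17.1%) were higher than in Dux OE. The call of Itpripl2 was lost in DESeq2 (adjusted p = 0.0546), in the fit of the compared groups only (0.0538), with thinned counts, and without either ESC replicate or SE KO Dux OE replicate 2 (log2 values of 0.83, 1.21 and 0.59), and against DMSO its log2 value was -1.16. Tet2, a 5-methylcytosine dioxygenase gene, fell in both alike, from 190 and 205 CPM in ESC to 60.8 and 64.5 CPM in Dux OE and 67 and 58.7 CPM in SE KO Dux OE, a difference of 0.01 ± 0.138 (SE) on the log2 scale. Conversely, 209 (26%) of the 804 genes lower in SE KO Dux OE were lower in Dux OE, and 595 were not.

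Of 20 pluripotency factors tested, 2 fell against ESC and none rose, where 3.84% of all genes tested fell and 9.02% rose. Utf1 went from 364 and 368 CPM in ESC through 201 and 198 CPM in Dux OE to 94.5 and 122 CPM in SE KO Dux OE (log2 fold change against ESC -1.76, adjusted p = 1.74e-12). Sall4 went from 490 and 515 through 323 and 348 to 222 and 238 CPM (-1.13, adjusted p = 2.53e-12), and against DMSO its log2 value was 0.01. Pou5f1, which encodes Oct4, read 659 and 638 CPM in ESC, 505 and 530 CPM in Dux OE and 351 and 393 CPM in SE KO Dux OE, a log2 change of -0.8 (adjusted p = 3.75e-07) that lay under the fold limit. Against DMSO the change of Pou5f1 was -1.28 (adjusted p = 5.71e-11) and was called. Sox2 and Klf4 lay within 0.12 of ESC on the log2 scale. Nanog read 839 and 777 CPM in SE KO Dux OE against 664 and 677 CPM in ESC and 509 and 502 CPM in Dux OE. Among 12 genes of the formative and primed states, Otx2, Zic2, Lef1 and Dnmt3l fell and Sox3 rose. Dnmt3l, a cofactor of de novo DNA methylation, read 161 and 162 CPM in ESC, 101 and 104 CPM in Dux OE and 38.1 and 44.3 CPM in SE KO Dux OE, and was lower than in both. Its log2 fold change was -1.97 against ESC and -0.48 against DMSO.

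Genes around the Tdpoz cluster were looked at because the deletion is named after it. Within 2 Mb of Tdpoz3 (chr3:93826020-93827117 in the table's coordinates), 90 genes were tested, of which 26 rose in Dux OE and 24 in SE KO Dux OE. There 8 were lower than in Dux OE and none was higher, by edgeR at the stated limits, where 3.84% and 2.46% of all genes tested were. The 8 were Tdpoz3, Tdpoz4, Spopfm1, Gm9113, Gm5543, Gm15265, Gm16740 and Gm37500, named after their values were seen. All of them but Gm15265 and Gm16740 were Dux-induced, and 29.4% of all Dux-induced genes were lower than in Dux OE. In SE KO RA against RA 9 of the 90 were lower, where 11% of all genes tested were. In SE KO PlaB against PlaB 30 were lower, where 26.1% of all genes tested were. The median log2 difference from Dux OE was -0.42 over the 90 genes, the 26 Dux-induced ones included. Over the 20 chromosomes with at least 100 tested genes, chromosome medians lay between -0.15 (chromosomes 2 and 3) and 0.24 (X).

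Genes found only in SE KO Dux OE were called against ESC, called in the same direction against Dux OE, and not called that way in Dux OE against ESC. There were 257 such higher genes and 188 lower ones. Of the 746 genes higher in SE KO Dux OE and not called higher in Dux OE, 489 were not called higher than Dux OE. Of the 595 lower ones 407 were not called lower than Dux OE, so neither group is counted. The higher set includes Itpripl2, whose call was uncertain as given above and which fell in Dux OE, and the lower set Gm12091, which rose there. Most differences were moderate: the median log2 difference from Dux OE was 1.91 in the higher and -1.75 in the lower set, and 122 and 73 genes differed from Dux OE by 4-fold or more. DESeq2 gave 168 higher and 156 lower genes.

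Under the other inducers, 174 of the 257 higher and 110 of the 188 lower genes were called the same way in neither comparison of SE KO with wild type. The share of all genes tested that was called in neither was not counted, so these counts do not set the genes apart. Of the 257 higher genes, 16 (6.23%) were also higher in SE KO RA against RA and 58 were lower, and 73 (28.4%) were also higher in SE KO PlaB against PlaB and 35 were lower, against 6.57% and 25.9% of all genes tested for higher and 11% and 26.1% for lower. Of the 188 lower genes, 19 (10.1%) were also lower in SE KO RA and 67 (35.6%) in SE KO PlaB, while 30 were higher in SE KO RA and 59 in SE KO PlaB. The shares called the same way thus lay near or above those of all genes. In the opposite direction, 22.6% of the higher genes were lower in SE KO RA, above the share of all genes, and 13.6% were lower in SE KO PlaB, below it. Of the lower genes, 16% were higher in SE KO RA and 31.4% in SE KO PlaB, both above the shares of all genes. The higher genes included many raised by retinoic acid in wild-type cells: 54.5% were higher in RA than in DMSO, where 20.6% of all genes were.

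Stromal and matrix genes were among the higher genes. Postn was at 0 counts in ESC and Dux OE and at 11.6 and 14.1 CPM in SE KO Dux OE, at least 66.7-fold higher than ESC. Col1a2, a type I collagen chain, read 0.311 and 0.6 CPM in ESC, 0.802 and 0.676 CPM in Dux OE and 19.5 and 20.4 CPM in SE KO Dux OE (log2 difference from Dux OE 4.74 ± 0.306 (SE), adjusted p = 2.82e-11). Col1a1 read 13.8 and 12.1 CPM after 3.35 and 3.04 CPM in Dux OE. Bgn, a matrix proteoglycan gene, read 4.35 and 4.81 CPM after 0.219 and 0.27 CPM, and Thbs1, which encodes thrombospondin, 3.29 and 2.58 CPM after 0.437 and 0.608 CPM. Of 6 fibroblast markers tested, 5 were higher than in ESC and 4 of them, Col1a1, Col1a2, Col3a1 and Postn, were in the set found only here. Their summed level was 116 and 118 CPM, against 10.2 to 62.5 CPM in the other 12 groups. Of 16 collagen and stromal genes, 9 lay above all 24 other libraries, and the sum of 425 to 463 CPM lay inside the range of the other groups, 148 to 590 CPM.

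Genes of the intestinal epithelium were also among them. The antimicrobial genes Reg3b and Lyz1 were at 0 counts in ESC and Dux OE and at 5.15 and 8.21 CPM and 4.73 and 7.1 CPM in SE KO Dux OE, at least 34.5-fold and 30.5-fold higher than ESC. Krt20, a keratin gene of the gut lining, read 1.33 and 2.42 CPM against group means of 0.0623 CPM in ESC and 0.0365 CPM in Dux OE. Over the other 24 libraries it reached 11 CPM. Of 25 intestinal epithelium markers, 15 lay above all 24 other libraries, and 16 of the 21 tested were in the set. The summed level was 93.6 and 116 CPM, against 27.4 to 88.2 CPM in the other groups. The goblet cell gene Muc2 read 1.54 and 1.28 CPM against up to 1.36 CPM elsewhere, and Apoa4 read 0.0265 and 0.0981 CPM, the 1 marker at or under 3 counts in both. Of 8 plasma and B cell markers, the immunoglobulin genes Igkc and Igha and the joining chain gene Jchain lay above all other libraries. Ms4a1 was at 0 in both. The sum over the list, 8.04 to 8.28 CPM, lay against 0.996 to 8.03 CPM elsewhere. These 3 lists were drawn up after their genes were seen in the data. Their part in the results was not tested, and without the 44 genes that lay 2-fold above all other libraries or were on these lists the higher set held 213.

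Genes outside those lists were in the higher set as well. Lefty1, a Nodal antagonist gene, read 7.23 and 9.26 CPM in ESC, 4.67 and 8.04 CPM in Dux OE and 21.6 and 24.9 CPM in SE KO Dux OE, 1.86 higher on the log2 scale than in Dux OE (adjusted p = 7.47e-09). Its rise against ESC was 1.49, and against DMSO 0.34 (adjusted p = 0.0503). Its neighbour Lefty2 read 47.3 and 48.1 CPM after 13.5 and 14.8 CPM in Dux OE, but 24 and 28.1 CPM in ESC. Its log2 value of 0.87 against ESC did not reach the fold limit, and against DMSO it was -1.25. Pmaip1, which encodes the p53 target Noxa, read 97.4 and 87.6 CPM after 28 and 26.9 CPM and was the 1 gene of 19 p53 targets in the set. Its log2 rise was 1.88 against ESC and 0.51 against DMSO. Slc7a11, the cystine transporter gene, read 5.97 and 8.21 CPM after 1.09 and 0.811 CPM. Dab2 and Pdgfra, markers of the primitive endoderm, were the members of that list of 14 in the set, with log2 differences from Dux OE of 1.38 and 1.28. Of the 257 genes, 23 (8.95%) were on the X chromosome, which holds 3.46% of the genes tested. Gm10095, with 212 and 0.36 CPM in the SE KO Dux OE replicates, rested on 1 library.

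Mitochondrial transcripts moved both ways. The ribosomal RNA mt-Rnr2 read 452 and 443 CPM in ESC, 376 and 374 CPM in Dux OE and 1130 and 1300 CPM in SE KO Dux OE. Of 13 mitochondrial protein genes tested, 2 were higher than in ESC, and the median log2 difference from Dux OE was 0.16 (-0.96 to 2.13). The 2 were mt-Co3 and mt-Nd3, both in the higher set too. The first read 82.8 and 73.2 CPM after 39.5 and 18.3 CPM in Dux OE. Values of mt-Nd3 were 19.3 and 26 CPM after 5.61 and 4.73 CPM. In SE KO PlaB against PlaB their log2 values were 6.28 and 6.94, and that of mt-Rnr2 was -2.09. The chromosome 1 gene Gm10925 rose from 32.4 and 28.2 CPM in Dux OE to 199 and 173 CPM. It and Gm29216, of the same chromosome, are in the higher set under the rule for named genes. Against DMSO their log2 values were -0.43 and -0.53, and in SE KO PlaB against PlaB 5.64 and 3.98. How reads that map to several places were counted is not stated. Whether mitochondrial reads were counted on these chromosome 1 genes was not tested. In contrast, 13 of 15 tested mitochondrial tRNA genes were lower than in ESC, and 19 of 22 were at 0 in both libraries. The gene mt-Th was at 13.8 and 10.8 CPM in ESC and 16.6 and 11.1 CPM in Dux OE, so it was at least 138-fold lower in SE KO Dux OE than in ESC. The summed level of the 22 genes was 12.3 and 13.1 CPM, and in the other groups 8.22 to 176 CPM, lowest in PlaB. Mitochondrial genes held 3.19% and 3.37% of all counts in SE KO Dux OE and 3.16% and 3.09% in ESC. Libraries were made from poly(A)-selected RNA, and the part of library making in these values was not tested.

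Among the lower genes, Snrpf had the lowest p-values. It read 52.3 and 49.5 CPM in ESC, 43.4 and 44.7 CPM in Dux OE and 0.106 and 0.164 CPM in SE KO Dux OE, -8.31 ± 0.201 (SE) on the log2 scale against Dux OE (adjusted p = 5.86e-21). In SE KO RA against RA its log2 value was -0.15 and in SE KO PlaB against PlaB -0.16. Slirp, which encodes a mitochondrial RNA-binding protein, read 0.212 and 0.0982 CPM after 5.1 and 4.06 CPM in Dux OE. Exons of both overlap genes on the opposite strand, and exons of Gm49450 and Gm49909, at 0 counts in both libraries, overlap genes on the same strand. Whether strand was used in counting is not stated, so these counts are uncertain. Of the 188 lower genes, 17% overlapped another gene's exons on the same strand and 31.4% were pseudogenes, against 6.97% and 8.95% of all genes tested, and 7.98% had under 200 bases of exon, against 1.47%. Without mitochondrial tRNA genes and genes with any exon overlap, 101 lower genes were left.

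Lower genes of high expression without such features were found too. Lncenc1, a long non-coding RNA of naive ESCs, read 230 and 229 CPM in ESC, 274 and 258 CPM in Dux OE and 53.3 and 48.2 CPM in SE KO Dux OE, a log2 difference from Dux OE of -2.39 ± 0.104 (SE). Upp1, a uridine phosphorylase gene, had a mean of 113 CPM after 304 CPM, and Chchd10, a mitochondrial protein gene, 51 and 62.9 CPM after 146 and 156 CPM. The germ cell factor gene Sohlh2 read 34.4 and 36.6 CPM after 96.5 and 89.7 CPM. These 4 were chosen after their values were seen. In SE KO RA against RA the log2 values of Lncenc1, Upp1, Chchd10 and Sohlh2 were -3.22, -0.25, 1.11 and -0.97. In SE KO PlaB against PlaB they were 1.42, -1.83, -2.21 and -0.2. Of 30 hypoxia targets, a list also drawn up after the data were seen, 7 were lower than in ESC and 2 were higher, beside 3.84% and 9.02% of all genes tested, and Bnip3 and Ndufa4l2 were in the set found only here. Bnip3, a mitophagy receptor gene, read 6.03 and 6.54 CPM after 24.6 and 26.8 CPM in Dux OE. Its log2 value was 0.63 in SE KO RA against RA and -2.11 in SE KO PlaB against PlaB. Ndufa4l2 read 0.77 and 0.949 CPM after 5.83 and 7.71 CPM, below all 24 other libraries. Sox1, of the neural markers, and Dnmt3l were lower only here as well.

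**Figure D5:**
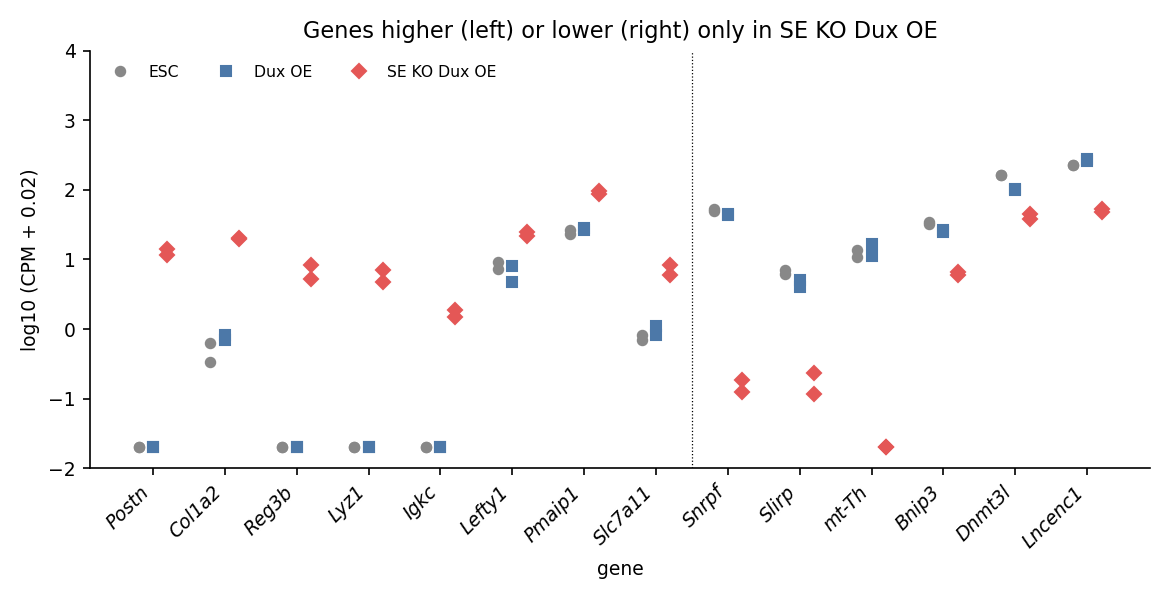
The y axis gives log10 of CPM plus 0.02 in each library of ESC (circles), Dux OE (squares) and SE KO Dux OE (diamonds) for 8 genes higher and 6 genes lower only in SE KO Dux OE, divided by the dotted line. The lowest marks are values of 0. In each of the 14 genes both SE KO Dux OE libraries lie outside the range of the other 4.

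The called members of the remaining lists are set beside the 9.02% of all genes tested that were higher than in ESC and the 3.84% that were lower. Of 19 integrated stress response genes, Slc7a11, Atf3, Nupr1 and Vldlr were higher than in ESC, and Trib3 was lower than in Dux OE at 16.7 and 16.2 CPM after 39.7 and 38.7 CPM. Among 27 imprinted genes tested, Magel2 and Phlda2 rose, and none of 9 Y-linked genes passed the filter on low counts. The summed level of the Y-linked genes was 0.371 and 0.556 CPM in SE KO Dux OE and at most 0.0752 CPM in the other 12 groups. What this rests on was not tested. Of 24 genes of DNA methylation and the germline, Sycp3, Taf7l, Rhox6 and Rhox9 rose, Tet2 fell, and no difference from Dux OE was called. Of 10 trophectoderm markers, Krt7 rose and Ascl2 fell. Of 10 mesendoderm markers, Lefty1 rose and T and Fgf8, both at no more than 0.311 CPM in all 3 groups, fell. Of 7 neural markers, Pax3 rose, at no more than 0.265 CPM, and Sox1 and Tubb3 fell. Sox7, of the primitive endoderm list, fell against ESC.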

How the data were processed

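Poly(A) RNA-seq of R1 ESCs, with libraries made with a NEBNext kit, gave 26 libraries in 13 groups of 2. The authors deposited whole-number counts per gene, not normalized, for 55291 genes in 1 table. The submitters' processing notes list Trimmomatic, FastQC, STAR, featureCounts, DESeq2 and build mm10, without versions. Whether strand was used, and how reads that map to several places were counted, is not given in the sources used here.

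From these counts, edgeR 4.0.16 (R 4.3.3) was run on all 26 libraries with TMM factors and 1 coefficient per group. Its default filter on low counts kept 20953 genes. Contrasts were tested with the quasi-likelihood F-test, two-sided, with Benjamini-Hochberg adjustment over all genes tested. Called genes had an adjusted p under 0.05 and differed by 1 or more on the log2 scale. CPM values used TMM-scaled library sizes, and fold changes a prior count of 0.125. A bound ("at least") sets libraries at 0 to 3 counts each and covers counting error only, since reads without molecular identifiers are not independent molecules. Gene types came from GENCODE M21, which named 53292 of the 55291 genes, and promoters from RefSeq (GRCm38.p6). The fit was tested on simulated data.

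Replicate numbers were not taken to pair samples: deviations of samples with the same number correlated between -0.0473 and 0.00573. SE KO Dux OE replicates differed by more than counting noise (chi-square per degree of freedom 9.81), so no library was a copy of another.

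The members and lists were chosen with earlier results of these data known. Named were all 2C and pluripotency list members as needed, 11 genes from the study's own comparison or its enhancer, and the 10 genes with the largest change of each set at an average log2 CPM of at least 1 whose groups do not overlap. Called members of the other lists were named too, and other genes are said to be chosen after their values were seen. Alternatives were DESeq2 1.42.0, other scaling, no filter, no fold limit, DMSO as control, a fit of the compared groups only, the replicate block, each replicate left out and, added after seeing the data, thinned counts and genes without exon overlap.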

Additional observations from a re-analysis of the deposited data

Results flagged for a closer look

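Differences between SE KO and wild type were compared across inducers by the interaction term of edgeR. Of the 257 genes higher only in SE KO Dux OE, 98 had a higher difference under Dux than under both retinoic acid and PlaB. Of the 188 lower only there, 76 were lower than under both. All these genes were chosen for their difference between SE KO Dux OE and Dux OE, which is part of that interaction, so the counts and values here are a description and no test. Snrpf stood out in the lower set, and both SE KO Dux OE libraries lay below all 24 others. Its difference between SE KO and wild type under Dux was -8.16 on the log2 scale from that under retinoic acid and -8.15 from that under PlaB. For Lefty1 the difference was 3.24 from retinoic acid and 4.75 from PlaB, and both SE KO Dux OE libraries lay above both libraries of ESC and of Dux OE. The inducers were given for different times, and the part of time, of the inducer and of the line in these differences was not tested.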

How the results depend on the processing

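Of the main counts under the alternatives, 196 stayed within 1.5 times the reported count and 31 did not. With the replicate block, although the numbers do not pair the samples, SE KO Dux OE had 1864 higher and 799 lower genes against ESC and 499 and 775 against Dux OE. Dux OE had 1539 and 437, 1134 Dux-induced genes were also higher, 258 and 186 genes were found only in SE KO Dux OE, and 59 and 23 genes of the 2C lists were called, so the block changed none of these counts by over 1.5 times.

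With no fold limit, SE KO Dux OE had 4102 higher and 3869 lower genes against ESC and 2406 and 2925 against Dux OE, and Dux OE 3089 and 2680. There 2132 Dux-induced genes were also higher, and the sets found only in SE KO Dux OE held 1143 and 1185 genes, of which 199 and 207 moved the same way in RA and 500 and 425 in PlaB, and 41 genes of the 2C lists were lower than in Dux OE. With DMSO as control, SE KO Dux OE had 1557 lower genes and Dux OE 2408 higher and 1403 lower, with 1770 higher in both, and 6 and 42 of the lower-only genes were also lower in RA and PlaB. So 1770 of 2408 Dux-induced genes were also higher with DMSO on both sides, where ESC as control gave 1145 of 1547, and 995 of the 2408 (41.3%) were higher in SE KO Dux OE against ESC. With DESeq2, 168 genes were higher only in SE KO Dux OE, 8 of them also in RA. Without the low-count filter, 43 lower-only genes were also lower in PlaB. By the calls of the main fit, 14405 of the 20953 genes had no exon overlap. Of these, 514 were lower than ESC and 110 lower only in SE KO Dux OE.

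Leaving out 1 of the 6 libraries in turn gave 1433 to 1865 higher and 641 to 841 lower genes against ESC, 1202 to 1624 and 343 to 494 for Dux OE, and 342 to 532 and 451 to 732 against Dux OE. Genes higher in both numbered 855 to 1082, and genes found only in SE KO Dux OE 173 to 265 and 131 to 198. Of those, 8 to 15 and 12 to 23 moved the same way in RA and 56 to 79 and 40 to 63 in PlaB. For the 2C lists the ranges were 54 to 59 and 19 to 26. Dux OE replicate 2 moved the counts against Dux OE (342 and 451), the 8 in RA and the 40 in PlaB, Dux OE replicate 1 gave 9 in RA, and ESC replicate 2 gave 12.

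Of single genes, 8 changed sign in SE KO Dux OE against ESC. Klf4 was at 0.01 with library size only. With DMSO as control the log2 values were -1.16 for Itpripl2, -0.43 for Gm10925, -0.53 for Gm29216, 1.27 for Gm24270, -0.5 for Sox2, 0.01 for Sall4 and -1.25 for Lefty2. The cause was not tested. Genes past the adjusted p but under the fold limit are not counted as called, and with no untreated SE KO library the effect of the deletion alone was not measured.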
